A study of Mus musculus with 2 samples.

Results

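The genes described here are 37 genes of atrial and ventricular heart muscle, measured in whole lung of mice given bleomycin into the airways. They were listed by role in the sarcomere, in calcium handling, in energy supply and in atrial identity. Probes were found through their RefSeq accession, and 36 of the 37 genes had at least 1 probe, of 20878 genes with a probe in all. Smpx, a small muscle protein, was not analysed here. The list was put together with the difference between these arrays already known, so the differences below are a description and were not tested.

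There was 1 array per group, and the title of the series names the question, what overexpression of HSP27 does in bleomycin-induced pulmonary fibrosis. HSP27, the product of Hspb1, is a small heat shock protein and chaperone. The groups were C57BL6/N mice and C57BL6/N mice overexpressing HSP27 as a transgene. Both were labelled male and 6 weeks old, and both received bleomycin at 1.25 mg/kg, with whole lung taken on day 14. No array of untreated lung was analysed, so both values of every gene come from bleomycin-treated lung. The promoter and species of the transgene, and whether a sample held 1 animal or a pool, were not given in the sources used here. With 1 array each there are no replicates, so how far animals vary is unknown, and precision is limited by how few arrays there are.

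Heart muscle cells contract through sarcomeres, in which myosin thick filaments pull on actin thin filaments anchored at Z-discs. Calcium released from the sarcoplasmic reticulum through the ryanodine receptor switches the thin filament on through troponin, and the pump SERCA2, restrained by phospholamban and sarcolipin, takes it back up. Atria and ventricles use partly different myosin light chains, and atrial cells also secrete natriuretic peptide. In mice, a sleeve of atrial-type heart muscle surrounds the pulmonary veins and extends into the lung.

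Promoter sequences of 3 pairs of members are shown because each pair joins a gene with a large difference between the arrays to a close relative with a difference inside 2-fold. Nppa and Nppb encode atrial and B-type natriuretic peptide and lie side by side on chromosome 4. Myh6 and Myh7 encode alpha and beta myosin heavy chain and lie side by side on chromosome 14, with 0 protein-coding genes between the members of either pair. Myl7 and Myl2 encode the atrial and ventricular regulatory light chains. The sequences are the 250 bases before an annotated RefSeq start in build GRCm38.p6, written 5′ to 3′ on the strand of the gene, with capitals marking matches on either strand to 6 motifs.
Nppa, chr4:148000472-148000721, plus strand: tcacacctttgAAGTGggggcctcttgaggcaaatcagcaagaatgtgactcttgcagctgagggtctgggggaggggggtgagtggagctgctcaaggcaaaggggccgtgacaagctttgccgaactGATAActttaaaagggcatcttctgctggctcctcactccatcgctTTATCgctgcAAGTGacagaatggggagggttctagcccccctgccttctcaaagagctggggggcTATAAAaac
Nppb, chr4:147985650-147985899, plus strand: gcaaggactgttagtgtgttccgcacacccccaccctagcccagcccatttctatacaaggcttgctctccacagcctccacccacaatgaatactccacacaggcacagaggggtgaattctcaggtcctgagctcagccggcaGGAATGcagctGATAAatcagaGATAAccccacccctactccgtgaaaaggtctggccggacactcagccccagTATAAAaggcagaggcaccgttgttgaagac
Myh6, chr14:54966608-54966857, minus strand: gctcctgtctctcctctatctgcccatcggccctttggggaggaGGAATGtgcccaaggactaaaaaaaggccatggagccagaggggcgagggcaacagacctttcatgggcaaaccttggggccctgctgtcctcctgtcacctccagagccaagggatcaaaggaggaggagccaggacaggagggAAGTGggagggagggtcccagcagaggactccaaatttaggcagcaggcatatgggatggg
Myh7, chr14:54994627-54994876, minus strand: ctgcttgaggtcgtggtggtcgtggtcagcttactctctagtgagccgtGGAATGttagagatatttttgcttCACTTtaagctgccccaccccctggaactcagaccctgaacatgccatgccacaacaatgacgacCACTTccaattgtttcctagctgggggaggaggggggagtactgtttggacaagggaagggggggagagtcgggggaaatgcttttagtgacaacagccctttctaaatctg
Myl7, chr11:5898783-5899032, minus strand: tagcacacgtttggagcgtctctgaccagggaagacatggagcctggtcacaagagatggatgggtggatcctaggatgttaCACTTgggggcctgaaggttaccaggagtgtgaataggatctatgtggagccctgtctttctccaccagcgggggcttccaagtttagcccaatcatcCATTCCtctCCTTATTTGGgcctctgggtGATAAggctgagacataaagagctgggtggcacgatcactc
Myl2, chr5:122092474-122092723, plus strand: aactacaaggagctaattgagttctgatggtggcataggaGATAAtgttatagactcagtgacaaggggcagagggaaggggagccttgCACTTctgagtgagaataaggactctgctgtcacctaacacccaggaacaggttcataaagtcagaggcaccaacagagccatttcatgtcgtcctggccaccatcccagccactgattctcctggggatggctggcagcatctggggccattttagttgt
The motifs were the MEF2 site, the CArG box bound by SRF, and the letters GATAA (GATA factors), AAGTG (Nkx2-5), CATTCC (TEAD) and TATAAA. Promoters were found for 32 of the 37 members, with 45 starts in all, and not for Sln, Tbx5, Tcap, Trdn and Xirp1. Myh7 and Myl2 each had another annotated start that is not printed above. The window before it held 1 match in each gene, AAGTG in Myh7 and TATAAA in Myl2. The Myh7 windows overlap, and this AAGTG is the site at -112 to -108 of the window printed above. A CArG box lay before 8 of the 45 starts (17.8%), in Actc1, Fhl2, Ldb3, Myl3, Myl7 and Nebl, against 1.47% of all 32851 promoters of this length. These 6 genes were among the 32 members with a promoter. Windows of nearby starts of a gene can overlap, so a site can be counted more than once. This was so for the CArG box of Ldb3 and for an AAGTG of Myh7 and of Mb. A MEF2 site lay before 5 starts (11.1%), in Casq2, Fhl2, Mybpc3, Myoz2 and Ttn, against 2.92% of all promoters. GATAA was present in 33.3% of member promoters and 22.6% of all, and CATTCC in 17.8% and 12.6%. AAGTG was present in 37.8% of member promoters and 40.7% of all, and TATAAA in 11.1% and 12.4%. The MEF2 and TATAAA matches of 1 Fhl2 promoter overlapped. These matches are letters in a window, and binding was not measured.

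Both arrays were bright. Between 69.3% and 69.5% of probes were well above background, and no spot was saturated. The 75th percentile of signal was 1287 for C57BL6/N and 1426 for the transgenic lung. Each array's level is given as log2 signal minus its own 75th percentile, and a difference is the transgenic level minus the C57BL6/N level. All 8 lung markers checked, such as Sftpc, Scgb1a1 and Ager, were well above background on both arrays. Of these 8, 7 were lower in the transgenic lung and 1 higher, around a median of -0.42, and the endothelial Cldn5 (-1.02) was past 2-fold. Their summed level, in units of the 75th percentile, was 772 and 625, and the part of this shift in the results below was not tested. Hspb1 had signals of 41040 for C57BL6/N and 53554 for the transgenic lung, a difference of 0.24 (1.18-fold). That lies inside the range of the 14 reference genes measured, from -0.44 to 0.96, so this probe does not bear out the overexpression label. Whether it reads the transgene is not known, and the transgenic lung means the lung labelled so throughout. The sex-linked signal went against a label: the 2 probes of Xist, an RNA of the inactive X chromosome, had signals of 521 and 330 in the C57BL6/N lung. In the transgenic lung they had signals of 2.83 and 3.36, and neither was well above background. Y-linked Ddx3y read 508 and 2437. Every result below rests on these same 2 arrays, and the part of this difference in sex-linked signal in them was not tested.

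Heart muscle genes were mostly higher on the array of the transgenic lung. Of the 36 members with a probe, 24 were well above background on both arrays, 11 on the transgenic array alone, 0 on the C57BL6/N array alone, and Kcnj3 on neither. The 11 are given as bounds below, and since they were measured through the transgenic array alone their direction is fixed. Among the 24 on both arrays, 16 exceeded 2-fold upward in the transgenic lung, 1 (Nebl) exceeded 2-fold downward and 7 differed by less. The same counts over all 15495 genes present on both arrays came to 3.81% upward and 1.87% downward. After cyclic loess the higher genes made up 77.3% of all genes past 2-fold, against 67.2% here. The median difference was 1.79 for the 24 members and -0.04 for all genes. At least 8-fold higher were 9 of the 24 members, against 49 (0.316%) of all genes. Of the 20878 genes with a probe, 2.44% were above background on the transgenic array alone and 1.58% on the C57BL6/N array alone. In bulk lung RNA, more cells of a type and more RNA per cell cannot be told apart.

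**Figure D1:**
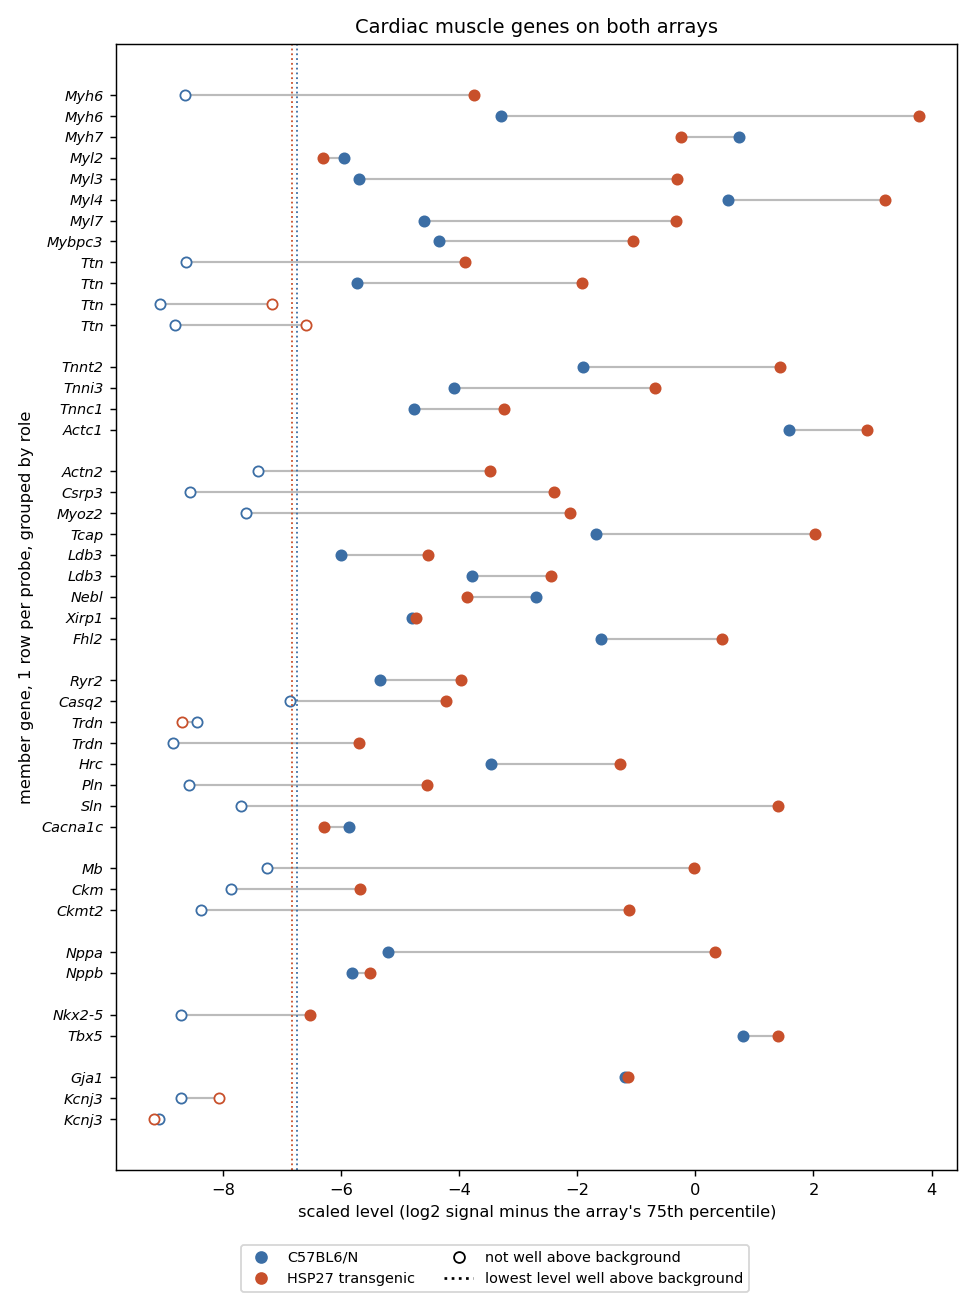
Scaled level (log2 signal minus the 75th percentile of the array) of each probe of the member genes on the C57BL6/N array (blue) and the transgenic array (orange), 1 row per probe, grouped by role. Open circles were not well above background, and dotted lines mark the lowest level well above background on each array. For 11 of the 36 genes an orange circle is filled and no blue one is.

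Repeat spots give the technical error. Over probes printed in at least 10 spots, single-spot differences had a median SD of 0.11 in the dimmest 105 probes and 0.07 in the middle and brightest 105. This spread describes the measurement and not the variation between animals. For a gene above background on 1 array alone, the fold is a bound, taken against the higher of the other array's lowest signal well above background and the probe's own dim signal there. Those lowest signals were 11.9 for C57BL6/N and 12.5 for the transgenic lung. Probe sequences were not used here, and cross-hybridisation between closely related muscle isoforms was not tested.

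The motor protein of the thick filament differed most among members measured on both arrays. Myh6, the alpha myosin heavy chain that predominates in the adult mouse heart, read 131 for C57BL6/N and 19725 for the transgenic lung at its brighter probe. The difference was 7.09 (136-fold), which ranked 7 among all genes by size upward. Its other probe read 3.22 and 106, and was above background on the transgenic array alone, at least 8.02-fold higher. Both Myh6 probes thus lay higher on the transgenic array. Myh7, the beta chain of slow muscle and of the fetal ventricle, read 2143 for C57BL6/N and 1212 for the transgenic lung. Its difference of -0.97 (1.96-fold lower) ran the other way and lay just inside 2-fold. The neighbouring Myh6 and Myh7 genes, whose promoters are printed above, therefore stood on opposite sides of 0.

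The myosin light chains differed among themselves. Myl7, the atrial regulatory light chain, read 53.2 and 1137, a difference of 4.27 (19.3-fold higher). Myl4, the atrial essential light chain, was already bright on the C57BL6/N array at 1889 and read 13184 on the transgenic array, a difference of 2.66 (6.30-fold). Myl2, the ventricular regulatory light chain, read 20.7 and 18.0, close to the lowest signal above background on either array. Its difference was -0.35. Myl2 had 1 spot per array, so it has no repeat-spot SD of its own, and the SD of 0.11 comes from other dim probes. The 10 Nppa spots on the C57BL6/N array, with a median signal of 34.8, had a log2 SD of 0.20. Myl3 is the essential light chain of the ventricle and of slow skeletal muscle. It read 24.9 for C57BL6/N and 1150 for the transgenic lung, a difference of 5.38 (41.7-fold). Of the ventricular pair, Myl3 thus lay far higher on the transgenic array and Myl2 did not.

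The scaffold proteins of the thick filament were higher too. Mybpc3, the cardiac myosin-binding protein C, read 63.3 and 684, a difference of 3.29 (9.75-fold). Titin (Ttn), the giant spring that spans each sarcomere from Z-disc to M-line, had 4 probes. The probe measured on both arrays read 24.3 and 377, a difference of 3.80. A second probe was above background on the transgenic array alone, at least 7.23-fold higher, and the other two were not well above background on either array, with signals of 9.94 and 14.8 on the transgenic array.

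All 4 thin filament genes passed 2-fold upward in the transgenic lung. Cardiac troponin T (Tnnt2), which ties the troponin complex to tropomyosin, read 344 and 3843, a difference of 3.33. Cardiac troponin I (Tnni3), the inhibitory subunit and a specific marker of heart muscle, read 75.5 and 892, a difference of 3.41. Both differences were near 10-fold, at 10.1-fold and 10.7-fold. Tnnc1, the calcium-binding troponin C of heart and slow muscle, read 47.2 and 151, a difference of 1.53. Actc1, cardiac alpha-actin, was bright on both arrays at 3853 and 10629, a difference of 1.32. The difference of Tnnc1 was 0.82 after normexp background correction, under 2-fold.

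Z-disc genes went both ways. Of 8 with a probe, 5 were measured on both arrays, where 3 passed 2-fold upward and 1 downward, and 3 were above background on the transgenic array alone. Telethonin (Tcap), which caps titin at the Z-disc, read 399 and 5824, a difference of 3.72 (13.2-fold). Fhl2, a LIM protein of heart and smooth muscle, read 427 and 1949, a difference of 2.04. Both probes of Ldb3, a Z-disc adaptor protein, were higher, by 1.48 and 1.33, and the gene by 1.41. The gene's difference was 0.59 after normexp. Myoz2 (calsarcin-1), Csrp3 (muscle LIM protein) and Actn2 (alpha-actinin 2) were above background on the transgenic array alone. Their signals there were 327, 272 and 128, against 6.60, 3.41 and 7.57 on the C57BL6/N array. The bounds were at least 24.7-fold higher for Myoz2, 20.6-fold for Csrp3 and 9.63-fold for Actn2. Xirp1, an actin-binding protein of intercalated discs, was close to equal at 46.1 and 53.8, a difference of 0.07. Nebl, which encodes nebulette and also a LIM protein isoform of tissues outside muscle, was the only member at least 2-fold lower. It read 198 and 98.2, a difference of -1.16, which was -0.85 after normexp.

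Calcium-handling genes included the largest bound of the list. Sarcolipin (Sln), the atrial inhibitor of the calcium pump, read 6.20 for C57BL6/N and 3749 for the transgenic lung, at least 283-fold higher. Phospholamban (Pln), its relative that restrains the same pump, read 3.40 and 61.2, at least 4.63-fold higher. Both inhibitors were thus above background on the transgenic array alone. Casq2, the cardiac calcium store protein calsequestrin, read 11.1 and 76.4, at least 5.77-fold higher. Triadin (Trdn), which joins calsequestrin to the release channel, had 1 probe at 2.81 and 27.5, at least 2.08-fold higher, and another not well above background on either array. Hrc, a histidine-rich protein of the same store, read 118 and 589, a difference of 2.18 (4.52-fold). The release channel Ryr2 read 31.7 and 90.7, a difference of 1.37, which was 0.58 after normexp. Cacna1c, the pore of the L-type calcium channel that is also present in smooth muscle and nerve, read 22.0 and 18.3, a difference of -0.41.

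The 3 energy genes were measured on the transgenic array alone. Myoglobin (Mb), the oxygen carrier of heart and red muscle, read 8.46 and 1397, at least 106-fold higher in the transgenic lung. Ckmt2, the sarcomeric mitochondrial creatine kinase, read 3.90 and 654, at least 49.4-fold higher. Ckm, the cytosolic muscle creatine kinase, read 5.55 and 28.0, at least 2.11-fold higher. The Ckm signal on the transgenic array was not far above the lowest signal well above background there, unlike those of Mb and Ckmt2.

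The natriuretic peptide genes differed from each other. Nppa, the atrial peptide hormone, was printed in 10 spots on each array. Its spots ran from 29.5 to 46.7 with a median of 34.8 on the C57BL6/N array, and from 1729 to 1878 with a median of 1809 on the transgenic array. The spots of the arrays did not overlap, and the difference was 5.55 (46.8-fold higher). Nppb, the neighbouring gene for the B-type peptide of stretched heart muscle, read 22.8 and 31.4, a difference of 0.31, which was -0.07 after normexp. Its promoter, printed above, holds 2 GATAA matches from -94 to -79 before the start, and that of Nppa holds 2 from -121 to -71.

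**Figure D2:**
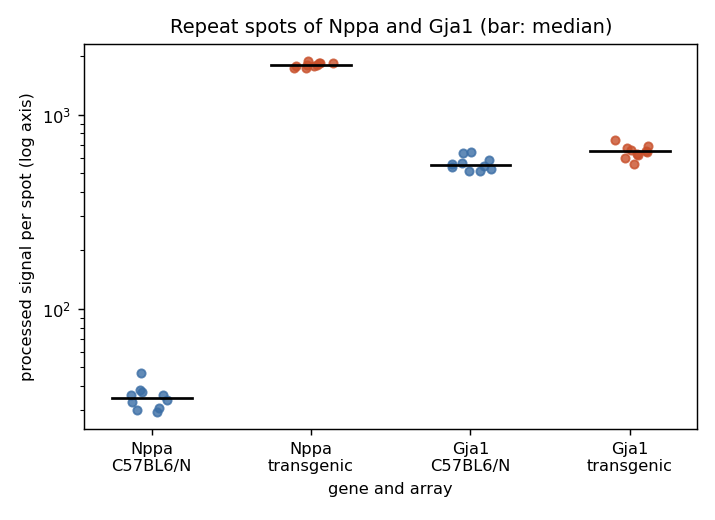
Processed signal (log axis) of the 10 repeat spots of Nppa and of Gja1 on the C57BL6/N array (blue) and the transgenic array (orange), with the median as a bar. The Nppa spots of the arrays lie apart, with medians of 34.8 and 1809, and the Gja1 spots overlap, with medians of 550 and 648.

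Regulators and membrane genes lay within 2-fold or near background. Tbx5, a T-box factor of heart, forelimb and lung mesenchyme, was bright on both arrays at 2241 and 3748, a difference of 0.59 (1.51-fold). Nkx2-5, the homeobox factor of heart muscle, read 3.08 and 15.5 and was just above background on the transgenic array alone, at least 1.17-fold higher. Gja1 (connexin 43), the main gap junction protein of the ventricle and also present in many lung cells, had 10 spots per array. They ran from 513 to 645 on the C57BL6/N array and from 560 to 737 on the transgenic array, so that they overlapped, and the difference was 0.05. Kcnj3, a subunit of the atrial potassium channel opened by acetylcholine, was not well above background on either array at either of its probes, with 3.07 and 5.33 at one and 2.37 and 2.50 at the other.

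The members bright on the C57BL6/N array had differences of every kind. Above a signal of 500 there were 5, namely Actc1, Tbx5, Myh7, Myl4 and Gja1, and their differences ran from -0.97 to 2.66. Of the 36 members with a probe, 11 were above background on the transgenic array alone, and 10 of these had a bound of at least 2-fold. Of all 20878 genes with a probe, 509 (2.44%) were above background on that array alone, and 195 (0.934% of the 20878) had such a bound. On the C57BL6/N array, 24 of the 36 members (66.7%) had a probe well above background, against 75.8% of all genes. On the transgenic array 35 of the 36 (97.2%) did, against 76.7% of all genes.

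Among other genes of heart muscle, outside the 37, most differed by less than 2-fold. They came in 3 lists of sarcomere genes, of calcium, channel and membrane genes, and of transcription factors, with 78 genes in all. With 56 of them present on both arrays, 8 passed 2-fold upward and 1 downward, and the median was 0.16. Of all 15495 genes present on both arrays, 14615 differed by less than 2-fold, 3.81% passed it upward and 1.87% downward, and the median was -0.04. Another 7 of the 78 (8.97%) were above background on the transgenic array alone, against 2.44% of all genes, and 2 of these 7 had a bound of at least 2-fold. Among sarcomere genes, Myom2, an M-line protein, was at 3.19 with signals of 70.4 and 713. The small heat shock protein Hspb7 was at 2.07, filamin C (Flnc) at 1.36 and desmin (Des) at 1.18. Mybphl, a myosin-binding protein of atrium and conduction system, was above background on the transgenic array alone, at least 6.99-fold higher, and Tnni1, the slow troponin I, at least 2.06-fold. Among membrane genes, Bves, a cAMP-binding protein of heart and muscle membranes, was at 1.83, the sodium channel subunit Scn4b at 1.79, Kcnj5, the partner of Kcnj3, at 1.52, and the sarcoglycan Sgca at 1.42. The inward rectifier Kcnj2 was at -1.16, and the calcium pump Atp2a2 (SERCA2) at 0.34, with probes at 0.75 and -0.06. None of the 12 transcription factors measured on both arrays passed 2-fold, with Gata4 at 0.52. The pacemaker channel Hcn4 was above background on neither array.

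Genes enriched in one chamber were set side by side, with members of the 37 among them. Of 13 atrium-enriched genes, 8 were measured on both arrays, and Nppa, Myl7, Myl4 and Kcnj5 passed 2-fold upward. Sln and Mybphl were above background on the transgenic array alone, and Kcnj3 and Bmp10 on neither. Apart from members of the 37, 5 were measured on both arrays, with 1 past 2-fold upward (Kcnj5) and a median of 0.16. Nr2f2 was at 0.24, Kcna5 at 0.16 (probes at 0.51 and -0.18), Nr2f1 at -0.30 and Gja5 at -0.44. Another Gja5 probe read 12.5 and 23.7 and was above background on the transgenic array alone, at least 1.71-fold higher. Of 8 ventricle-enriched genes, 6 were measured on both arrays, and Myl3 alone was at least 2-fold higher. The ventricular factors Hey2 and Irx4, measured on both arrays and outside the 37, were at 0.66 and 0.12, and Kcnip2 and Hand1 were above background on neither array. These lists were compared by counts alone, since 1 array per group allows no test of the difference.

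Genes of muscle energy supply that heart shares with other tissues numbered 20 on both arrays. Their median was 0.35, and 4 passed 2-fold upward and 0 downward. Cox8b, a subunit of cytochrome c oxidase in muscle and brown fat, read 334 and 1741, a difference of 2.24. Pgam2, the muscle phosphoglycerate mutase, was at 1.85, the insulin-responsive glucose transporter Slc2a4 at 1.63, and Cox7a1, the muscle form of another oxidase subunit, at 1.03. The muscle ecto-enzyme Art1 was above background on the transgenic array alone, at least 6.48-fold higher. Fabp3, the fatty acid carrier of heart, was at 0.37.

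Markers of fat cells were higher on the same array. Of 13 fat cell markers, 7 were measured on both arrays, and 5 of these passed 2-fold upward and 0 downward (median 2.17). Another 5 were above background on the transgenic array alone. Adipsin (Cfd) read 30.3 and 26422, a difference of 9.62. Resistin (Retn) was at 5.27. Adiponectin (Adipoq) was at least 76.1-fold higher, Pck1, an enzyme of glycerol synthesis in fat, at least 54.0-fold, the lipid droplet protein Plin1 at least 18.7-fold and Ucp1, the uncoupling protein of brown fat, at least 11.7-fold, and leptin (Lep) was not well above background on either array. Summed over probes, in units of the 75th percentile, fat cell markers stood at 4.57 for C57BL6/N and 35.5 for the transgenic lung, and the 36 heart muscle members at 10.1 and 52.7. The part of fat cell transcripts in the heart muscle result was not tested.

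Skeletal and smooth muscle markers had medians between 0 and 1. Of 24 skeletal muscle markers, 14 were measured on both arrays, and 3 of these passed 2-fold upward and 0 downward (median 0.32). Their summed level was 3.38 and 5.44. Those 3 were the fast troponin Tnnt3 (2.82), the perinatal myosin Myh8 (2.68) and skeletal alpha-actin Acta1 (2.03). Another Myh8 probe read 3.51 and 4.29 and was above background on neither array. The light chain Myl1 was above background on the transgenic array alone, at least 6.54-fold higher, and the embryonic myosin Myh3 on the C57BL6/N array alone, at least 2.35-fold lower in the transgenic lung. The fast myosins Myh1, Myh2 and Myh4, the fast light chain Mylpf and the muscle factors Myod1, Myog and Pax7 were above background on neither array. All 12 smooth muscle markers were measured, and 3 passed 2-fold upward (Cnn1 at 1.91, Actg2 at 1.64 and Acta2 at 1.51) and 0 downward, around a median of 0.64. The smooth muscle myosin Myh11 was at 0.90. Their summed level was 72.7 and 129. The 7 mesothelium markers measured, of the lining of pleura and pericardium, had 0 past 2-fold around a median of 0.28, with mesothelin (Msln) also at 0.28. Their summed level was 23.8 and 30.9, and Calb2 was above background on neither array. The 14 reference genes measured had 0 past 2-fold, around a median of 0.03. The part of these cell types in the heart muscle result was not tested.

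**Figure D3:**
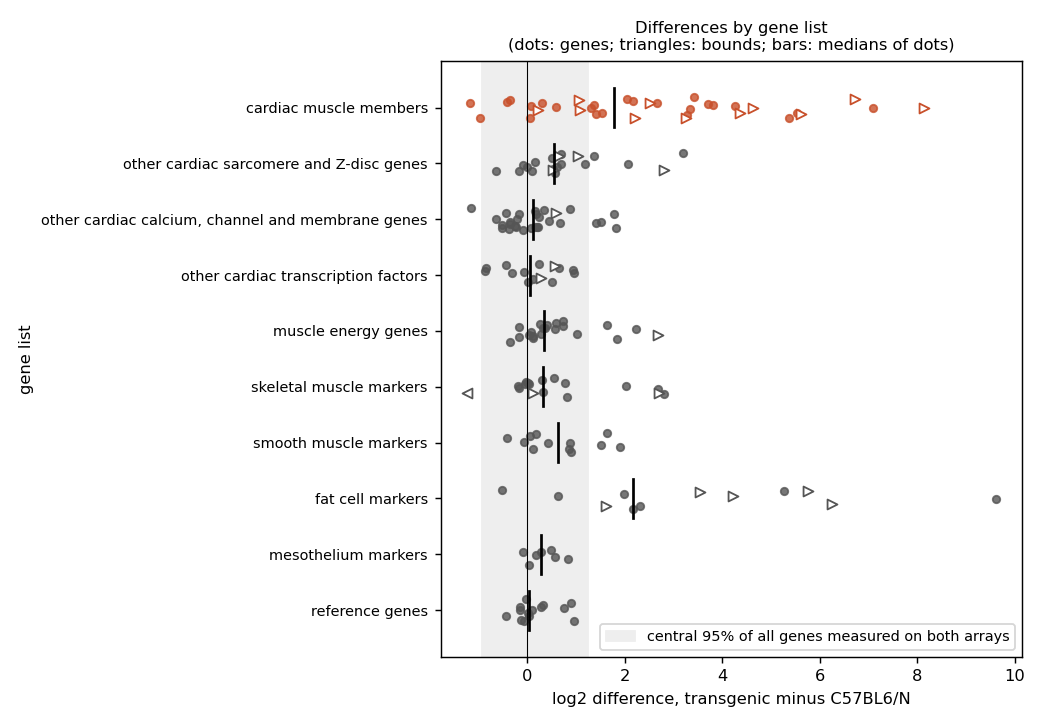
Log2 difference (transgenic minus C57BL6/N) of each gene in the list of heart muscle members and in 9 other lists, with genes measured on both arrays as dots, their median as a bar and bounds as triangles. The grey band holds the central 95% of all genes measured on both arrays, from -0.92 to 1.24. The medians are 1.79 for the heart muscle members, 2.17 for fat cell markers and 0.32 for skeletal muscle markers.

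The processing changed the size of the differences and left the direction of every member past 2-fold as it was, under all 9 alternatives in which that member could be measured. Normexp background correction, which adds a constant before the log and so shrinks differences of dim probes, gave 13 members at least 2-fold higher in place of 16, and 0 lower in place of 1. With it the differences were 6.65 for Myh6, 4.16 for Nppa, 3.63 for Myl3, 3.24 for Myl7, 2.69 for Tnni3, 2.44 for Mybpc3 and 2.23 for Ttn. Of the 11 members on the transgenic array alone, 6 kept a bound of at least 2-fold, with log2 bounds of 5.81 for Sln, 4.13 for Mb, 3.47 for Ckmt2, 2.30 for Myoz2, 2.00 for Csrp3 and 1.15 for Actn2. Those of Casq2 (0.67), Pln (0.56), Trdn (0.44) and Ckm (0.25) dropped under it. Without the filter on dim probes Myh6 was at 5.99.

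**Figure D4:**
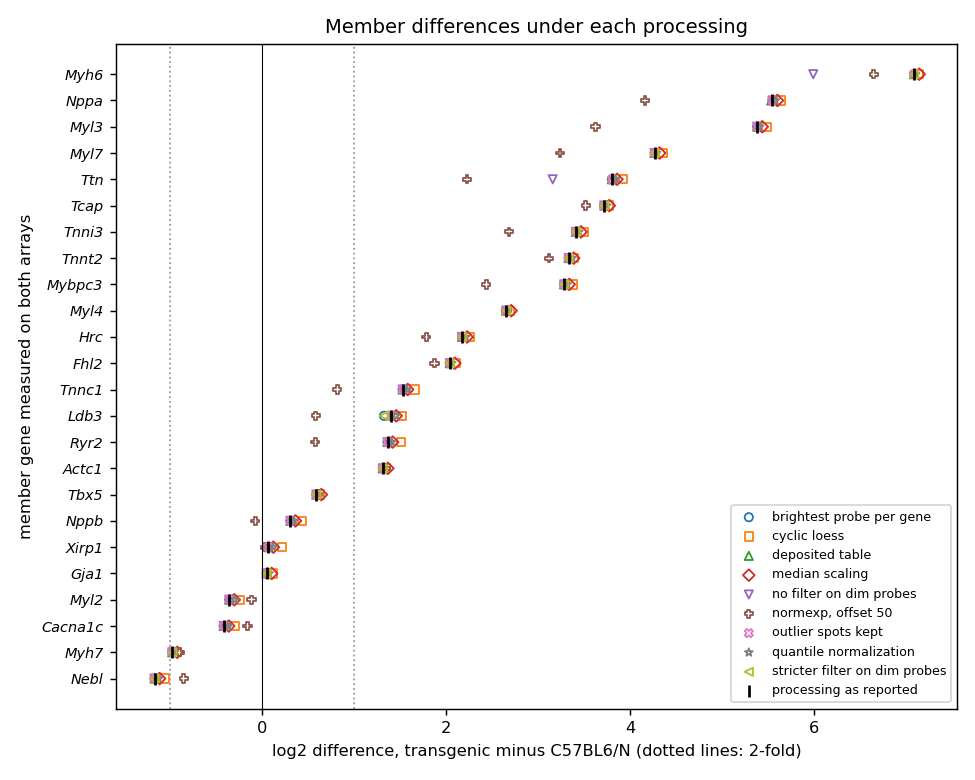
Log2 difference (transgenic minus C57BL6/N) of the 24 members measured on both arrays under the processing as reported (black bars) and under 9 alternatives (open symbols), with dotted lines at 2-fold. Normexp gives the smallest value for most of the higher genes, and Tnnc1, Ldb3 and Ryr2 cross the 2-fold line with it.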

How the data were processed

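Total RNA of whole lung was hybridised to one-colour Agilent arrays, 1 per group. Per the file headers, Agilent Feature Extraction 11.5.1.1 made the deposited intensity of each spot, subtracting background without normalizing between arrays. The deposited table of the series equalled these intensities within 0.1% at all 39030 probes with 1 spot. Both arrays carry the same scan date. The design names build mm9, so accessions were matched to a GRCm38.p6 table for names alone. Control and outlier spots were left out, spots of a probe were averaged as log2, and each array was scaled to its 75th percentile. A probe was used if at least 50% of its spots were well above background on both arrays and none was saturated. A gene is the mean of its usable probes. The main call is a difference of at least 2-fold.

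The members and lists were chosen with earlier results of these data known. All 37 members are named, and genes of other lists where they passed 2-fold, had a bound of at least 2-fold or define a chamber or cell type. Of some lists 6 at most per direction could be named, and 1 listed gene is not reported here. Simulated data served to test each step. Alternatives were normexp (offset 50, without 7 spots at or below their local background), median scaling, quantile normalization, cyclic loess, no or a stricter filter (4 times the lowest signal above background), outlier spots kept, the brightest probe and the deposited table. Python 3.11.15, numpy 2.4.6, pandas 2.3.3, matplotlib 3.10.9, R 4.3.3 and limma 3.58.1 were used.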

Additional observations from a re-analysis of the deposited data

Results flagged for a closer look

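Of 6027 usable probes without a gene symbol, which the comparison by gene does not use, 158 (2.62%) passed 2-fold upward in the transgenic lung and 411 passed 2-fold downward. Among genes measured on both arrays, 591 (3.81%) passed 2-fold upward and 289 (1.87%) downward. The upward share of these probes was thus below that of the genes, and more of the probes went downward than upward, unlike the genes. Among these probes the difference reached 6.84 on the log2 scale. Whether any of these probes reads a heart muscle transcript was not tested.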

How the results depend on the processing

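Of the 16 members at least 2-fold higher, all kept that side of 2-fold with median scaling, quantile normalization, cyclic loess, outlier spots kept, the brightest probe and the deposited table. Without the filter on dim probes, all 36 members were given a difference, 27 were at least 2-fold higher and the median was 2.41. These 36 include the 11 members given as bounds and Kcnj3, whose C57BL6/N signals were not well above background. Their differences rest on those dim signals, and the direction of the 11 was fixed in advance. The 27 and the 2.41 therefore do not test the member result. Of all genes, 1195 were higher and 736 lower in this setting. With normexp 13 members were higher and 0 lower, the median was 1.57, and 306 of all genes were higher and 112 lower, against 591 and 289. With the stricter filter 15 members were measured, 11 of them higher, and the median was 2.18. That filter left out Myl3, Nppa, Ttn, Tnnc1 and Ryr2, all at least 2-fold higher here, and Myl2, Nppb, Cacna1c and Xirp1. Nebl, the member at least 2-fold lower, was at -0.85 with normexp. Signals near background limit Myl2, Cacna1c, Nppb, Nkx2-5 and Kcnj3, and also Trdn and Ckm, at 27.5 and 28.0 on the transgenic array. The size of some large differences rests on dim C57BL6/N signals, which were 24.9 for Myl3, 24.3 for Ttn, 34.9 for Nppa, 31.7 for Ryr2 and 47.2 for Tnnc1. No paired analysis was possible because each group had 1 array.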
